A study of Mus musculus with 9 samples.

Results

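Adult cardiac fibroblasts and embryonic cardiomyocytes from mouse differ in both cell type and age, and their transcripts were compared on 3 arrays of each, 6 of the 9 arrays of the series. Of 28767 probes on the Affymetrix Mouse Gene 1.0 ST array, 21776 carried a single gene symbol, and where a gene had several such probes the brightest on average was taken, which gave 19933 genes. The cardiomyocytes were the embryonic cells marked by the Nkx-YFP reporter, whose name refers to a cardiac lineage gene. The adult fibroblasts are labelled by age and tissue alone, and embryonic cardiac fibroblasts made up the remaining 3 arrays. Strain, embryonic stage, adult age, sex, any culture step and pooling of animals are details that the sources used here do not give. The stated purpose of the series is the search for fibroblast products that make myocytes divide. Adult fibroblasts against embryonic cardiomyocytes is the pair in which age and cell type change together, so the share of each in a difference cannot be told apart.

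Cardiomyocytes of the embryo contract, burn fuel in a growing mitochondrial network and still divide, whereas cardiac fibroblasts build and remodel the matrix between muscle cells. Fibroblasts also sense tissue damage and answer it with cytokines, chemokines and proteases, under control of NF-kB and interferon-regulated factors. Growth factors pass between both cell types, for example neuregulin to ErbB receptors on myocytes and FGF or IGF ligands to their receptors.

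Cell division, contraction and oxidative metabolism genes were lower in the adult fibroblasts, and inflammatory, interferon-response and many matrix genes were higher. The limma test called 7091 genes (35.6% of those tested) at an adjusted p under 0.05. Of these, 3465 (17.4%) were higher and 3626 (18.2%) were lower in adult fibroblasts. A difference of at least 2-fold was found in addition for 1154 (5.79%) higher and 1495 (7.5%) lower genes. The groups did not overlap for 9155 genes (45.9%), with adult fibroblasts above for 24.2% and below for 21.7%. Il6, which encodes the cytokine interleukin-6, led the higher genes at 139.8-fold. Bex1, a small brain-expressed X-linked gene found in many embryonic cells, had the largest difference among the lower ones, at 132.0-fold. Both folds are measured against dim values, whose lower limit is unknown. These were 4.33 to 5.01 for Bex1 in adult and 4.95 to 5.79 for Il6 in cardiomyocyte arrays. Because a bulk sample averages over its cells, fewer cells of a type and less RNA per cell cannot be told apart in any of these values.

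**Figure D1:**
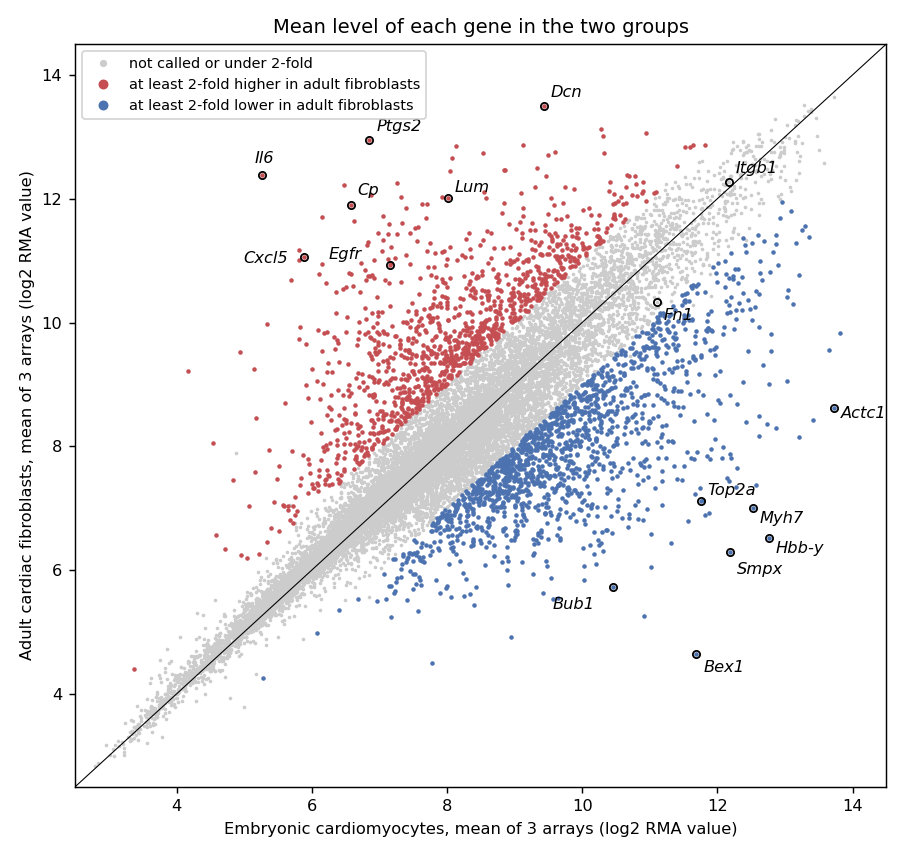
Mean log2 RMA value of each of 19933 genes in embryonic cardiomyocytes (horizontal, 3 arrays) and adult cardiac fibroblasts (vertical, 3 arrays), with equal levels on the diagonal. Red points are the 1154 genes called and at least 2-fold higher in adult fibroblasts, blue points the 1495 that were lower, and Il6 and Bex1 lie farthest from the diagonal on either side.

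The arrays of the cardiomyocytes resembled each other closely (median Pearson r 0.994 over probes), those of the adult fibroblasts less so (0.970), and arrays of opposite groups least (0.903). Adult replicate 3 stood apart from its group with a narrower range of values (SD over probes 1.71, against 1.83 and 1.85). Among genes at least 4-fold higher in adult fibroblasts, it was the lowest adult array for 186 of 351 and the highest for 105. Its median distance from the mean of replicates 1 and 2 was -0.18 log2 units for these genes. Without it, 3846 genes were higher and 3790 lower. The median difference over all genes was 0.06 log2 units.

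The marker genes fitted both labels. All 14 measured cardiomyocyte markers were lower in adult fibroblasts, with a median log2 difference of -4.55, and all 12 fibroblast markers were higher, with a median of 2.41. Decorin, a small leucine-rich proteoglycan that binds collagen and is encoded by Dcn, had values of 13.55, 13.41 and 13.52 in adult replicates 1 to 3. In cardiomyocyte replicates 1 to 3 they were 10.01, 9.17 and 9.13, so the groups were far apart (4.06 ± 0.21 log2 units, SE of the limma fit, adjusted p = 7.58e-07). The mean level of the cardiomyocyte markers was 7.91 to 8.25 in adult arrays, highest in replicate 2, and 12.39 to 12.53 in cardiomyocyte arrays. Array medians over all probes ran from 7.6 to 7.65, so the muscle markers averaged somewhat above the middle of the adult arrays. For the fibroblast markers the mean was 10.44 to 10.68 in adult and 8.07 to 8.30 in cardiomyocyte arrays.

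Some lists of markers of other cell types differed between the groups, and whether such cells were present was not tested. Of 16 macrophage markers, 14 were higher in adult fibroblasts and 0 lower, with a median of 1.29. Their mean level was 8.63, 9.33 and 8.85 in adult replicates 1 to 3 and 7.46 to 7.58 in cardiomyocytes. Ptprc, the pan-leukocyte antigen CD45, differed by 2.84 ± 0.27 and Cd14, a co-receptor for bacterial lipopolysaccharide, by 3.03 ± 0.38. Unlike the mean of the list, Ptprc (9.65, 10.50 and 10.81) and Cd14 (8.99, 9.72 and 10.76) were highest in adult replicate 3. Endothelial markers were called higher in 6 of 12 cases, but in 2 without cardiomyocyte replicate 2 and in 3 without replicate 3. Their mean level was 9.18, 9.77 and 8.71 in adult replicates 1 to 3 and 8.32 to 8.70 in cardiomyocyte arrays. RMA values have no zero, so absence of such cells cannot be read from them. Lymphocyte and mast cell markers gave 1 higher and 1 lower member of 13 (7.69% each), against 17.4% and 18.2% over all genes. Without any single adult array 2 were higher, and without adult replicate 1 or cardiomyocyte replicate 1 or 3, 0 were lower. Among erythroid markers 3 of 7 were lower and 0 higher, namely the embryonic globins Hbb-y (-6.24), Hba-x (-2.97) and Hbb-bh1 (-1.56).

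Sex-linked transcripts also separated the groups. Eif2s3y, a Y-linked translation factor gene, stood at 4.97, 4.67 and 5.10 in adult arrays and at 8.51, 9.33 and 8.98 in cardiomyocytes. Uty (-2.97 ± 0.16) and Kdm5d (-1.88 ± 0.22) were lower, and no adult array reached a cardiomyocyte array for any of the 3 genes. Xist, the RNA that silences an X chromosome in female cells, was high in every array (11.54 to 11.92 in adult and 10.49 to 11.16 in cardiomyocyte arrays). The cardiomyocyte arrays were thus high in both Y-linked genes and Xist. Sex, age and cell type therefore cannot be told apart.

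Genes of the inflammatory response made up much of the upper end. Il6 values were 12.19, 12.02 and 12.94 in adult fibroblasts and 5.79, 5.03 and 4.95 in cardiomyocytes, apart by 7.13 ± 0.42 log2 units (limma adjusted p = 1.64e-06). The lowest adult array was thus far above the highest cardiomyocyte array. Ptgs2, the inducible cyclooxygenase that starts prostaglandin synthesis, read 13.05, 12.74 and 13.05 against 6.74, 7.02 and 6.81. Its difference of 6.09 ± 0.15 corresponds to 68.1-fold (adjusted p = 3.35e-08). Tnfaip6, whose secreted product binds hyaluronan at sites of inflammation, was 47.2-fold higher and Clec4e, a receptor for microbial glycolipids, 36.8-fold higher. Clec4e was highest in adult replicate 2 (10.82, 11.5 and 10.73), as were the means of the macrophage and of the endothelial markers. The part of either cell type in it was not tested. Ceruloplasmin, the copper carrier and acute phase protein encoded by Cp, was 40.1-fold higher (11.87, 11.65 and 12.20 against 6.65, 6.62 and 6.46).

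**Figure D2:**
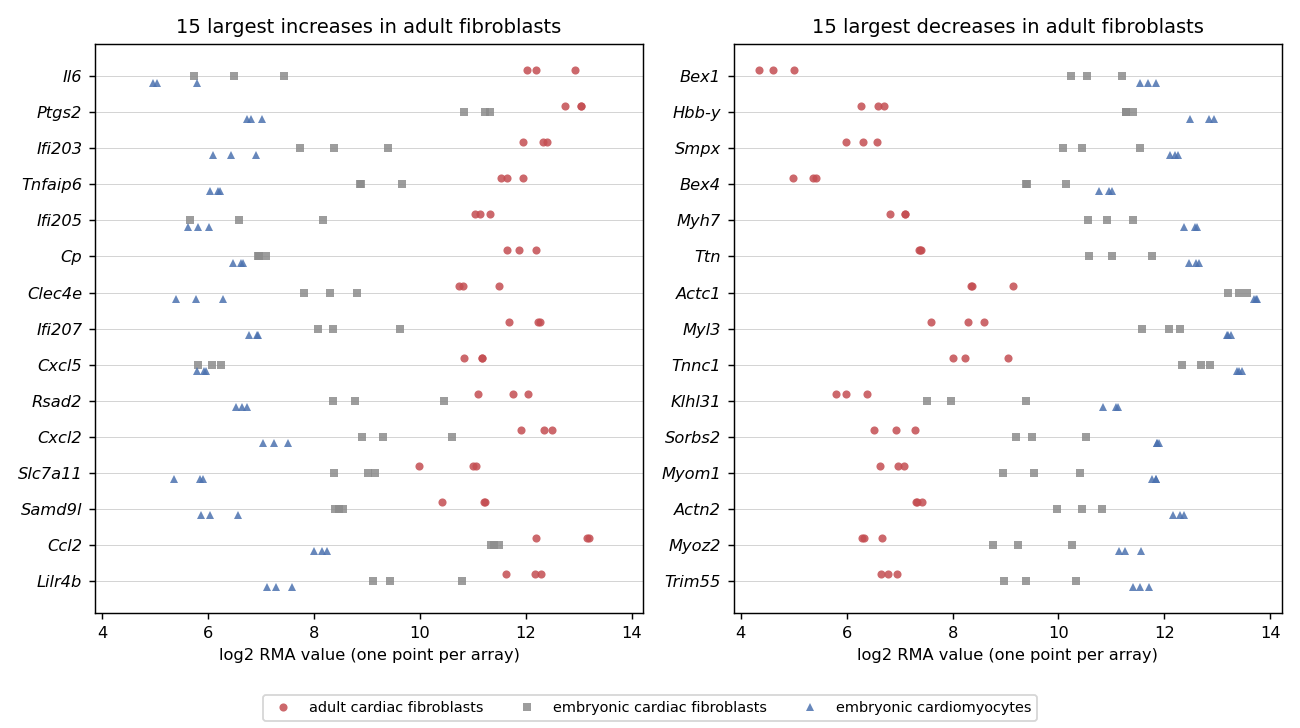
Values on each of the 9 arrays for the 15 genes with the largest log2 difference in each direction, among called genes whose groups do not overlap, between adult cardiac fibroblasts (red circles) and embryonic cardiomyocytes (blue triangles), with embryonic cardiac fibroblasts (grey squares) for reference; the horizontal axis is the log2 RMA value. For Il6 the adult arrays sit between 12.02 and 12.94 and the cardiomyocyte arrays between 4.95 and 5.79.

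Chemokines, which draw leukocytes into tissue, were higher for 22 of 33 measured members and lower for 0 (median 1.10). Cxcl5, which attracts neutrophils, had 11.17, 11.17 and 10.84 in adult arrays and 5.96, 5.92 and 5.79 in cardiomyocytes, which is 36.0-fold (adjusted p = 3.52e-08). Cxcl2, a further neutrophil attractant, was higher by 4.99 ± 0.37 and Ccl2, the main monocyte attractant, by 4.71 ± 0.23. Ccl3 showed the widest spread of these, at 11.36, 12.02 and 10.61 in the adult arrays, and differed by 4.28 ± 0.63. Ccl3 and the means of the macrophage and of the endothelial markers were all highest in adult replicate 2. The part of either cell type in the chemokine values was not tested.

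In the list of IL-1, TNF and NF-kB feedback genes 29 of 34 members were higher and 0 lower (median 2.14), against 17.4% higher over all genes. Beside Ptgs2 these included the cytokine genes Il1a (4.25 ± 0.40) and Il33 (3.87 ± 0.19) and Tlr4, the lipopolysaccharide receptor (3.64 ± 0.18). Il33 read 11.17, 10.68 and 10.43 in adult arrays and 7.18, 6.65 and 6.84 in cardiomyocytes, well outside the spread of either group. Myc, a transcription factor gene induced by growth signals, was 12.1-fold higher. Genes of AP-1 subunits differed in direction, with Fosl1 higher (2.78 ± 0.22) and Fos (-0.77 ± 0.19) and Jun (-0.72 ± 0.10) lower. The immediate early and heat shock list as a whole gave 11 higher and 7 lower of 30.

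Interferon-response genes were called higher in 31 of 33 cases and lower in 0, with a median difference of 1.74. Rsad2, the antiviral enzyme viperin, read 11.11, 12.04 and 11.75 in adult arrays and 6.65, 6.73 and 6.52 in cardiomyocytes (5.0 ± 0.47, adjusted p = 2.59e-05). Ifih1, a sensor of double-stranded RNA, was higher by 4.48 ± 0.36. Differences of 5.76 for Ifi203, 5.35 for Ifi205 and 5.18 for Ifi207 belong to a cluster of near-identical genes, and how far the probes tell these apart is uncertain. The same holds for the leukocyte receptor gene Lilr4b (4.70 ± 0.38) and its close paralogue. Antigen presentation genes were higher in 13 of 19 cases, with B2m, the invariant chain of MHC class I, at 2.12 ± 0.11. A lone lower member, Psme1, lost its call when adult replicate 3 or any single cardiomyocyte array was left out. H2-Aa, an MHC class II chain of professional antigen-presenting cells, reached 9.77, 10.98 and 8.22 in adult arrays and 5.98, 5.72 and 6.02 in cardiomyocytes. It was highest in adult replicate 2, as were the means of the macrophage and of the endothelial markers. The part of either cell type in H2-Aa was not tested.

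Complement and acute phase genes were higher for 21 of 30 members, with C1s1, a protease of the classical pathway (4.58 ± 0.31), and Serping1, its inhibitor (4.28 ± 0.14), among the largest. The lone lower member was Cd59a, a membrane inhibitor of the complement pore (-1.59 ± 0.13). Antioxidant and detoxification genes gave 20 higher and 6 lower of 34. Slc7a11, the cystine importer that feeds glutathione synthesis, had 11.06, 11.01 and 9.99 in adult arrays against 5.84, 5.36 and 5.90, and Hmox1, heme oxygenase, was 18.4-fold higher. Gsta4 (-2.98 ± 0.15) and Mgst3 (-2.53 ± 0.20), which encode glutathione transferases, were lower.

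Short stretches before the transcription start of leading inflammatory genes are printed because they hold letters of the sites that NF-kB and interferon-regulated factors are known to bind. They are RefSeq promoter sequences of the GRCm38.p6 assembly, written 5′ to 3′ on the strand of the gene. Capitals mark a kappaB site in the first pair and an interferon-stimulated response element, GAAANNGAAA on either strand, in the second.
Il6, chr5:30013034-30013113 (+), 80 to 1 bases before the start: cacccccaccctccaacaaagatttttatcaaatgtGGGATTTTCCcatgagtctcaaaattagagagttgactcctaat
Cxcl2, chr5:90903767-90903846 (+), 132 to 53 bases before the start: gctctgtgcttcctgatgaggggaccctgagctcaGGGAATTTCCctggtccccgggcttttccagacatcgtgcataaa
Rsad2, chr12:26456528-26456607 (-), 155 to 76 bases before the start: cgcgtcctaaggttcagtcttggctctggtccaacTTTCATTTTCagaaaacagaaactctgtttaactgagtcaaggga
Ifi207, chr1:173741810-173741889 (-), 80 to 1 bases before the start: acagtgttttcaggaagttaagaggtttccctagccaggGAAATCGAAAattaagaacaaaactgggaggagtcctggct
A window of 300 bases, 250 before to 50 after the start, was at hand for 15609 of the genes compared. The response element was found in 14 of 26 promoters of the interferon list (53.8%) and in 3.31% of all 15609. A kappaB match was found in 4 of 23 chemokine promoters (17.4%), 4 of 25 of the IL-1, TNF and NF-kB list (16%) and 0.814% of all. The AP-1 letters, TGANTCA, were found in 11 of 38 promoters of genes at least 16-fold higher (28.9%) and 6.93% of all. At a cut of 4-fold they were in 41 of 263 promoters of higher genes (15.6%) and 17 of 378 of lower genes (4.5%). A match is a run of letters and shows neither binding nor use in these cells.

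Cardiac muscle genes were prominent among the lower genes, beside Bex1, Bex4, the globin gene Hbb-y and mitosis genes. Of 13 myosin chain genes 11 were lower and 0 higher (median -3.09). Myh7, the slow cardiac myosin heavy chain, read 7.11, 6.81 and 7.11 in adult fibroblasts and 12.62, 12.57 and 12.37 in cardiomyocytes, which is 45.7-fold less (adjusted p = 1.77e-07). Myl3, the ventricular essential light chain, was lower (-5.06 ± 0.25) and Myl7, the atrial regulatory light chain, (-4.67 ± 0.17). Adult values were 8.30, 8.58 and 7.59 for Myl3 and 7.03, 7.25 and 7.11 for Myl7, below each cardiomyocyte array.

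The thin filament list held 17 lower genes and 1 higher gene of 19 (median -2.69). Actc1, cardiac alpha-actin, was among the brightest genes of the cardiomyocytes (13.70, 13.74 and 13.74) and read 8.34, 9.15 and 8.36 in adult fibroblasts. Actins share long stretches of sequence, which leaves the split between them uncertain. Tnnc1, the calcium-binding troponin of heart and slow muscle, was 31.7-fold lower. Tpm3, a tropomyosin gene that also serves the cytoskeleton of non-muscle cells, was the exception, at 12.60, 12.68 and 12.29 against 11.41, 11.37 and 11.42. Other probes of Tpm3 gave smaller differences, from 0.04 to 0.89. Nebl, the Z-disc protein nebulette, differed by -4.74 on its brightest probe and by -1.60 on a second.

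Titin, Z-disc and M-band genes were lower in 21 of 25 cases and higher in 0 (median -2.83). Ttn, the giant spring protein of the sarcomere, had 7.39, 7.39 and 7.37 in adult arrays and 12.61, 12.65 and 12.47 in cardiomyocytes. Smpx, a small protein of the muscle cell's force-bearing sites, was 59.6-fold lower (5.99, 6.31 and 6.57 against 12.26, 12.20 and 12.10). Actn2, the Z-disc crosslinker, and Myom1, which ties filaments at the M-band, both differed by -4.93, and Myoz2, a calcineurin-binding Z-disc protein, by -4.88. Klhl31 differed by -4.97 on its brightest probe and by -2.19 on the other.

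Calcium cycling genes were lower in 19 of 22 cases and higher in 0 (median -2.28). Pln, the inhibitor of the calcium pump, read 8.03, 8.66 and 8.21 in adult fibroblasts and 12.92, 12.95 and 12.74 in cardiomyocytes. Ryr2, the calcium release channel, was lower (-4.44 ± 0.22), and Casq2, which stores calcium in the reticulum, (-4.01 ± 0.28). Intercalated disc genes, which couple neighbouring muscle cells, were lower in 12 of 15 cases, with N-cadherin, Cdh2 (-4.44 ± 0.16), and desmoplakin, Dsp (-4.41 ± 0.16), at the front. Channel and gap junction genes were more divided, with 9 of 19 lower and 0 higher, led by the connexin gene Gja5 (-3.11 ± 0.14).

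Cardiac transcription factors were called lower in 16 of 32 cases. Ankrd1, a muscle stress cofactor, was lower (-4.65 ± 0.18), Hey2, a Notch effector of the ventricle, (-3.65 ± 0.29), and Myocd, the partner of serum response factor, (-2.76 ± 0.23). The 1 higher member, Foxc1, was not called without cardiomyocyte replicate 2 or 3, and 2 members were higher without adult replicate 3. Nkx2-5, the cardiac homeobox gene, had 8.23, 8.09 and 8.38 in adult arrays and 8.15, 8.41 and 8.33 in cardiomyocytes. Those ranges overlap, and the difference of -0.07 ± 0.10 was not called (adjusted p = 0.656) and changed sign after quantile normalization (0.008093), though the reporter that marks the cardiomyocytes carries the name Nkx. Whether the probe measures the transcript was not tested. The natriuretic peptide genes Nppa (-4.65 ± 0.25) and Nppb (-3.32 ± 0.34), hormones of the stretched or embryonic heart, were lower.

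Printed next are windows of 4 muscle gene promoters, chosen because each holds the letters of a CArG box, the site of serum response factor, or of a MEF2 site, in capitals (RefSeq, GRCm38.p6, gene strand, 5′ to 3′).
Actc1, CArG box, chr2:114052878-114052957 (-): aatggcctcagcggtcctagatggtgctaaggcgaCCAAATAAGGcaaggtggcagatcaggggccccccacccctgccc
Myl7, CArG box, chr11:5898799-5898878 (-): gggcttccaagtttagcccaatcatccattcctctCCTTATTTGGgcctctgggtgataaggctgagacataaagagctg
Myl3, CArG box, chr9:110763558-110763637 (+): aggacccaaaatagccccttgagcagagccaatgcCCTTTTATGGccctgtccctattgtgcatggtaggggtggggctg
Myoz2, MEF2 site, chr3:123034988-123035067 (-): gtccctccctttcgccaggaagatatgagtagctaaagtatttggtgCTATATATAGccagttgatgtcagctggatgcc
All of these lie before the annotated start. CArG boxes were found in 3 of 17 thin filament promoters (17.6%), 2 of 13 myosin promoters (15.4%) and 1.43% of all. MEF2 matches were found in 5 of 20 promoters of the titin, Z-disc and M-band list (25%) and 0.545% of all. Neither was found in any of the 16 promoters of the calcium cycling list. Most promoters of these lists thus held neither set of letters in this window.

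Energy metabolism genes were lower across pathways. Of 23 genes of the tricarboxylic acid cycle 22 were lower (median -1.96), led by the mitochondrial isocitrate dehydrogenase gene Idh2 (8.09, 8.13 and 8.29 against 12.69, 12.64 and 12.54; 21.9-fold). Complex I subunit genes of the Nduf family were lower in 34 of 35 cases (median -1.96), and the 1 that was higher lost its call without adult replicate 1 or 2 or cardiomyocyte replicate 2 or 3. ATP synthase genes were lower in 17 of 17 and cytochrome c oxidase genes in 13 of 17. The mitochondrial ribosomal protein genes gave 64 lower of 77 (median -0.80) and 2 higher, but 1 without adult replicate 2 or cardiomyocyte replicate 3. Cytosolic ribosomal protein genes differed little, with a median of -0.14. Of 60, 12 were lower (20%), near the 18.2% over all genes, and 4 higher (6.67%), against 17.4%. The count of lower ones became 3, 5 and 4 without cardiomyocyte replicates 1, 2 and 3.

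Fatty acid oxidation and its regulators were lower in 20 of 26 cases and higher in 0, or 1 without adult replicate 3. Fabp3, the muscle fatty acid carrier, was lower (-4.09 ± 0.23) and Ppargc1a, a coactivator of mitochondrial gene expression, (-3.83 ± 0.28). Glycolysis and glycogen genes were lower in 26 of 33, among them the muscle isoforms Pgam2 (-4.31 ± 0.25) and Eno3 (-3.65 ± 0.21). The 2 that were higher encode the hexokinase Hk2 (11.19, 10.87 and 9.96 against 9.10, 9.29 and 8.95) and Pfkfb3 (1.43 ± 0.26), which makes an activator of phosphofructokinase. Stearoyl-CoA desaturases went opposite ways, with Scd1 higher by 1.88 ± 0.16 and Scd2 lower (-3.19 ± 0.14).

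**Figure D3:**
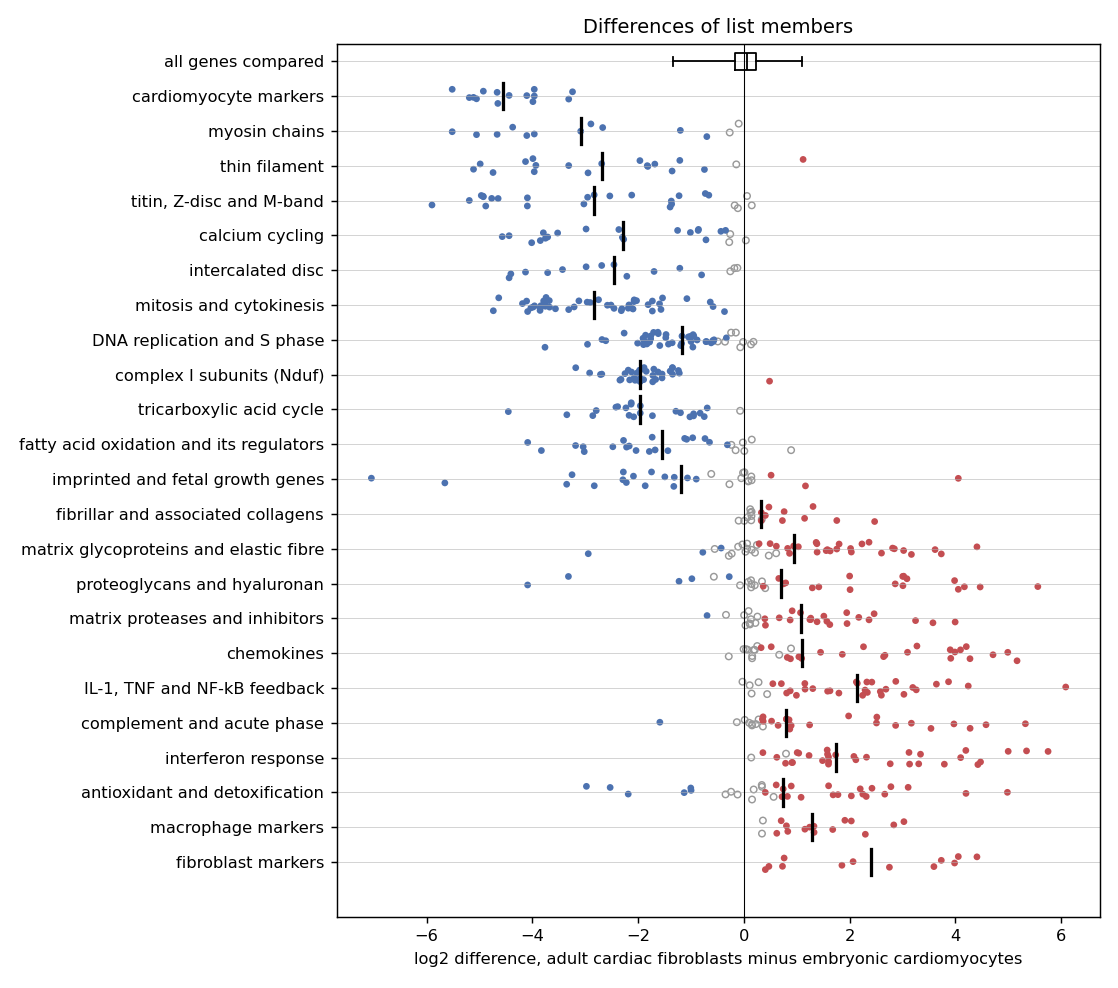
Log2 difference of each member of 23 gene lists (points; red higher and blue lower at an adjusted p under 0.05, open grey not called), adult cardiac fibroblasts minus embryonic cardiomyocytes, with the median of each list as a bar. The box at the top gives the quartiles and the 5th and 95th percentiles of all 19933 genes; mitosis genes (median -2.83) lie wholly to the left and interferon-response genes (median 1.74) wholly to the right of 0.

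Genes of mitosis and cytokinesis were lower in 46 of 46 cases, with a median of -2.83, against 18.2% of all genes. Bub1, a kinase of the spindle checkpoint, read 5.15, 5.55 and 6.46 in adult fibroblasts and 10.51, 10.55 and 10.31 in cardiomyocytes, a 26.7-fold difference. Top2a, the topoisomerase of dividing cells, was lower (-4.64 ± 0.17) on its brightest probe (6.91, 7.17 and 7.27 against 11.80, 11.75 and 11.71) and by -0.98 on a second probe. Ect2, which positions the cleavage furrow, was lower (-4.19 ± 0.15) and Anln, a furrow scaffold, (-4.11 ± 0.11). Adult and cardiomyocyte arrays did not overlap for any of the 46 genes, against 21.7% of all genes with adult fibroblasts below.

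DNA replication and S phase genes were lower in 40 of 48 cases with a smaller median of -1.17, and higher in 0, or 1 without adult replicate 3. The primase gene Prim1 (-3.76 ± 0.25) and the ribonucleotide reductase genes Rrm2 (-2.96 ± 0.15) and Rrm1 (-2.61 ± 0.19) differed most together with Gins1 (-2.68 ± 0.17), a part of the replicative helicase. Cyclins D, CDK inhibitors and p53 targets were mixed, at 7 higher and 12 lower of 27. Among p53 targets, Gadd45a (2.28 ± 0.14) and Mdm2 (1.33 ± 0.11) were higher and Btg2 (-1.37 ± 0.18) was lower. Cdk4, the kinase that cyclins D activate, read 9.52, 9.57 and 8.19 against 11.08, 11.20 and 10.88. Cdkn1c, an imprinted CDK inhibitor of the embryo, was lower (-1.86 ± 0.08), so the list had no common direction.

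Promoter letters separated both groups of cell cycle genes. The CHR element, TTTGAA on either strand, is the known landing site of the complex that times mitotic genes, and it was found in 34 of 41 promoters of the mitosis list (82.9%), 5 of 39 of the S phase list (12.8%) and 15.2% of all. An E2F site (TTTCCCGC, TTTCGCGC, TTTGCCGC or TTTGGCGC on either strand) was found in 15 of 39 S phase promoters (38.5%), 3 of 41 mitosis promoters (7.32%) and 3.1% of all. A pair of mitosis windows shows the CHR letters in capitals (RefSeq, GRCm38.p6, gene strand, 5′ to 3′).
Top2a, chr11:99024190-99024269 (-): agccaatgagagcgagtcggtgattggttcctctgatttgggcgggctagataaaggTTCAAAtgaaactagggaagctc
Ect2, chr3:27153950-27154029 (-): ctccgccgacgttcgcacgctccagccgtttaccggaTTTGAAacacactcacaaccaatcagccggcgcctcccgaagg

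**Figure D4:**
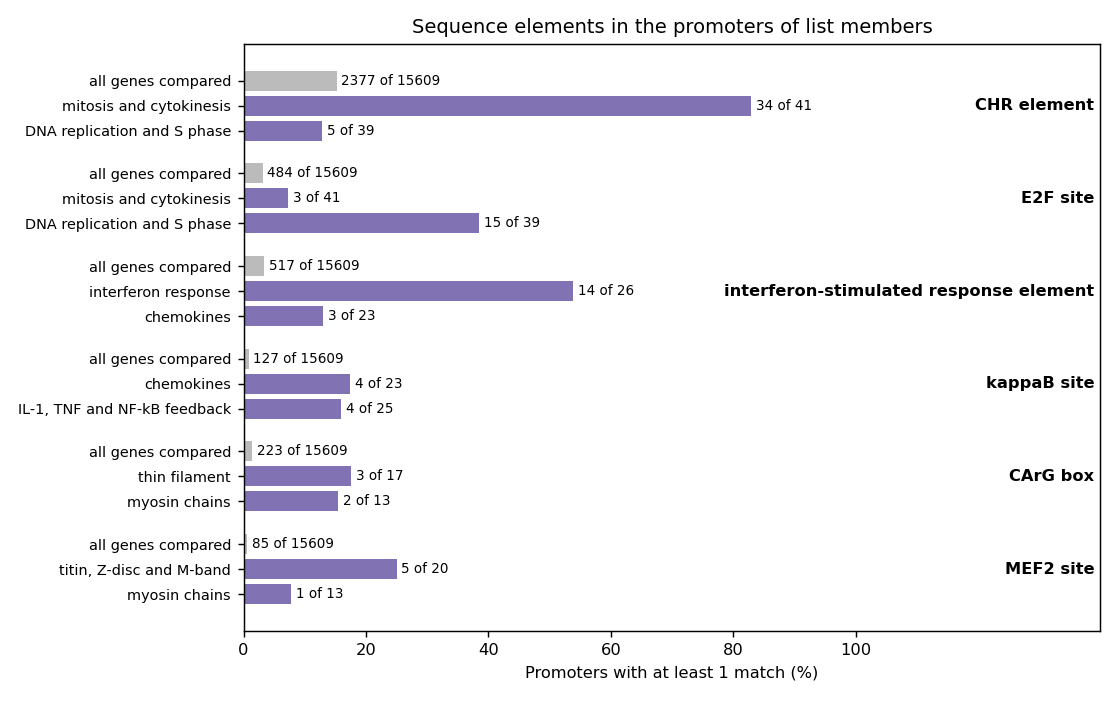
Share of promoters (percent, 300-base windows) with at least 1 match to each of 6 sequence elements in the lists named on the left (purple) and among all 15609 compared genes with a promoter (grey); numbers beside the bars are promoters with a match of promoters searched. The CHR element was found in 34 of 41 mitosis promoters and the interferon-stimulated response element in 14 of 26 promoters of the interferon list.

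Imprinted and fetal growth genes were lower in 16 of 28 cases and higher in 3 (median -1.19). Bex1 had 4.60, 5.01 and 4.33 in adult fibroblasts and 11.84, 11.55 and 11.69 in cardiomyocytes, and Bex4 5.37, 5.41 and 4.99 against 10.76, 10.96 and 11.01. Both were dim in the adult arrays, where the lower limit is unknown. Mest, a paternally expressed gene of embryonic mesoderm, was lower (-3.35 ± 0.19). Dcn, Impact (1.17 ± 0.15) and Sgce (0.52 ± 0.08) were the members that were higher.

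Matrix lists differed unevenly, most with more higher than lower members in adult fibroblasts. Of 19 fibrillar and associated collagens 10 were higher and 0 lower, but the median difference was 0.33. Col8a1, a short-chain collagen, differed most (2.48 ± 0.19), followed by Col14a1, which sits on fibril surfaces (1.76 ± 0.11). Col3a1, a main fibrillar collagen, read 9.15, 9.10 and 9.10 against 8.44, 8.31 and 8.30 (0.76 ± 0.10, adjusted p = 0.000183). For Col1a1, the type I collagen chain, the values were 9.05, 8.80 and 8.85 against 8.49, 8.48 and 8.51. Its difference of 0.41 ± 0.13 passed the test (adjusted p = 0.0355) but not without adult replicate 1 or any single cardiomyocyte array. Collagen processing genes gave 8 higher and 2 lower of 20, with 5 higher without adult replicate 1 or cardiomyocyte replicate 1 and 4 without cardiomyocyte replicate 2. Pcolce2, an enhancer of procollagen cleavage, led them (3.44 ± 0.16). Basement membrane genes had no common direction, with 7 higher and 7 lower of 23, or 4 lower without cardiomyocyte replicate 2. Lama2, a laminin chain of muscle and mesenchyme (2.02 ± 0.16), and Nid1, which links laminin to collagen (1.65 ± 0.14), were higher. Fras1 (-1.38 ± 0.12) and Frem1 (-1.20 ± 0.16), proteins of embryonic basement membranes, were lower.

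Proteoglycans and glycoproteins differed more than collagens. Proteoglycan and hyaluronan genes were higher in 18 and lower in 5 of 32 cases (median 0.71), and matrix glycoproteins and elastic fibre genes in 27 and 3 of 43 (median 0.94). Prg4, the joint lubricant lubricin, read 12.07, 11.45 and 10.84 in adult arrays and 7.04, 7.13 and 6.78 in cardiomyocytes, a 22.2-fold difference. Mfap5, a microfibril protein, was 21.3-fold higher, and Dpt, dermatopontin, and Thbs1, thrombospondin, were higher by 3.74 ± 0.29 and 3.17 ± 0.18. Gpc3, a glypican of the embryo, was lower (-3.32 ± 0.14) and Fbn2, the fibrillin of developing tissue, (-2.94 ± 0.15).

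Fibronectin, encoded by Fn1, was among the matrix genes that were lower. Its values were 10.31, 10.37 and 10.33 in adult fibroblasts and 11.28, 11.03 and 11.02 in cardiomyocytes, so that adult fibroblasts were 1.71-fold lower (-0.78 ± 0.11, adjusted p = 0.000522). Proteases and their inhibitors were higher in 21 of 31 cases (median 1.07), with Adamts5, which cleaves proteoglycans (4.0 ± 0.21), and the collagenase Mmp13 (3.58 ± 0.28) and stromelysin Mmp3 (3.25 ± 0.28). The 1 lower member was the membrane protease Adam10 (-0.69 ± 0.12), and 2 were lower without adult replicate 3. The list of integrins, receptors for matrix proteins, gave 9 higher and 2 lower of 26, or 5 higher without cardiomyocyte replicate 1. Neither lower member, Itgb1bp2 (-1.12 ± 0.09) or Nmrk2 (-0.30 ± 0.07), encodes an integrin chain. Itgav, a receptor chain for vitronectin and fibronectin, was higher by 1.71 ± 0.17. Itgb1, the shared beta1 chain, was bright and close in both groups (12.24, 12.28 and 12.27 against 12.16, 12.26 and 12.08) and its difference of 0.10 ± 0.08 was not called (adjusted p = 0.362), though after quantile normalization it was 0.35 and called (adjusted p = 0.01465).

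Transcription factors of mesenchyme and epicardium were higher in 18 of 37 cases and lower in 0, or 1 without cardiomyocyte replicate 1. Tcf21, a factor of fibroblast progenitors, read 10.14, 9.87 and 9.83 against 7.25, 6.96 and 7.36, and Prrx1, a mesenchymal homeobox gene, was higher by 2.34 ± 0.22. Contractile genes of smooth muscle and myofibroblasts were divided, at 6 higher and 9 lower of 22. Acta2, smooth muscle actin, had 9.11, 9.46 and 7.65 in adult fibroblasts and 12.08, 12.05 and 11.92 in cardiomyocytes. Adult replicate 3 was the lowest, and even the highest adult array lay below each cardiomyocyte array. Cnn1, calponin, was 15.9-fold lower, and Cald1, caldesmon, higher by 0.94 ± 0.13.

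Genes of signals that could pass between both cell types are given by family, ligands before receptors. Of 10 EGF family ligands, 2 were higher (20%), near the 17.4% over all genes. In this list 0 were lower, against 18.2% over all genes, though 2 were lower without adult replicate 3. Ereg, epiregulin, read 8.78, 8.54 and 9.29 in adult fibroblasts and 6.50, 6.44 and 6.80 in cardiomyocytes. Hbegf, heparin-binding EGF-like growth factor, read 10.74, 10.84 and 10.03 against 9.57, 9.82 and 9.70, a 1.79-fold difference with adult replicate 3 nearest the cardiomyocytes (0.84 ± 0.20, adjusted p = 0.00927). Nrg1, neuregulin, just missed the threshold (-0.24 ± 0.08, adjusted p = 0.0508). Receptors of the family split. Egfr, a receptor of both higher ligands though not their only one, was 13.6-fold higher in adult fibroblasts (11.33, 10.89 and 10.56 against 7.05, 7.12 and 7.30). Erbb4, a neuregulin receptor of myocytes, was 6.55-fold lower (7.53, 7.15 and 7.41 against 10.17, 10.13 and 9.92), and its partner Erbb2 was lower (-1.12 ± 0.12).

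Among 22 FGF ligands 3 were higher (13.6%) and 4 lower (18.2%), close to the shares of 17.4% and 18.2% over all genes. Fgf7, a mesenchymal factor for epithelia, read 10.17, 9.65 and 10.20 against 6.87, 6.98 and 6.26, and Fgf2 was higher by 2.44 ± 0.12. Fgf13, an intracellular member that binds sodium channels, was lower (-2.28 ± 0.17) and Fgf9, a secreted myocardial growth factor, (-0.90 ± 0.17). Fgfr1 was 7.30-fold higher (11.59, 11.22 and 10.48 against 8.20, 8.18 and 8.31), again with adult replicate 3 the lowest. The feedback inhibitor Spry2 was higher by 1.56 ± 0.13. The lone lower gene in the receptor list, Fgfr2 (-0.37 ± 0.12), lost its call without adult replicate 1 or any single cardiomyocyte array.

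The IGF system was lower at its embryonic end. Igf2, the fetal growth factor, was 9.50-fold lower in adult fibroblasts (8.51, 8.49 and 8.22 against 11.73, 11.63 and 11.62). Igf1, the postnatal ligand, was higher by 0.60 ± 0.15. Igf2r, which clears Igf2, was lower (-2.22 ± 0.08), the insulin receptor gene Insr (-1.72 ± 0.12) and Igf1r (-0.68 ± 0.17). Binding protein genes were divided. Igfbp7 (3.62 ± 0.15), Igfbp3 (2.40 ± 0.12) and Igfbp6 (1.39 ± 0.16) were higher, Igfbp5 (-0.94 ± 0.13) and Igfbp2 (-0.57 ± 0.15) were lower, and Igfbp1 and Igfbp4 were not called. Over the list, 7 were higher and 9 lower of 19, so that ligand, receptor and binding protein genes did not share a direction.

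The IL-6 family had 3 higher ligands of 6 and 4 higher members of 7 on the receptor side, with 0 lower on either side. Beside Il6, Lif, which keeps several progenitors undifferentiated, read 9.70, 9.0 and 8.40 against 6.79, 6.98 and 6.49. Osmr, the oncostatin M receptor, was 11.8-fold higher (12.06, 12.03 and 12.24 against 8.86, 8.13 and 8.68), and Il6st, the shared signalling chain, was higher by 1.23 ± 0.11. Ligands for PDGF, VEGF, HGF and angiopoietin receptors and related factors were higher in 12 and lower in 6 of 23 cases. Csf1, the growth factor of macrophages, was 15.8-fold higher (11.44, 11.62 and 11.26 against 7.63, 7.25 and 7.5), and Angpt1, a ligand for the endothelial receptor Tie2, was lower (-3.0 ± 0.30). On the receptor side 14 of 23 were higher and 1 lower, with Pdgfra, a receptor that marks fibroblasts, at 2.07 ± 0.10.

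**Figure D5:**
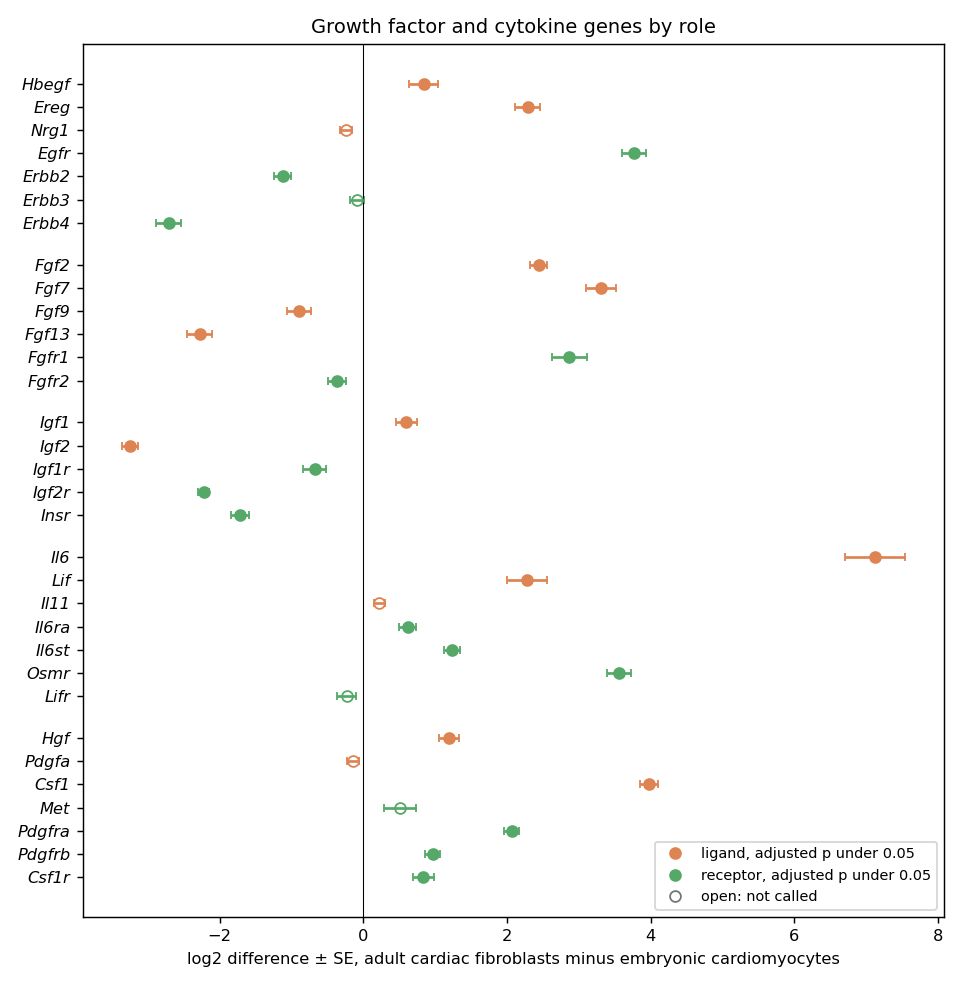
Log2 difference ± SE (limma, 3 arrays per group) of ligand (orange) and receptor (green) genes of 5 signalling groups, adult cardiac fibroblasts minus embryonic cardiomyocytes; open circles did not pass an adjusted p under 0.05. Il6 (7.13), Csf1 (3.98) and Egfr (3.77) lie farthest to the right, and Igf2 (-3.25) and Erbb4 (-2.71) farthest to the left; the genes plotted were picked for their roles with values known.

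In the TGF-beta and BMP family 13 ligands and antagonists of 28 were higher and 4 lower. Inhba, the activin A subunit, read 11.78, 10.75 and 9.96 against 8.68, 8.52 and 8.37, and Tgfb1 was higher by 1.00 ± 0.20. Bmp10, a ligand of embryonic heart muscle, was lower (-2.89 ± 0.20) and Bmp7 (-1.72 ± 0.13). The receptor list gave 7 higher and 3 lower of 15, with 1 lower without cardiomyocyte replicate 1 or 2. Bmpr2, a type II BMP receptor (0.70 ± 0.09), and Tgfbr2, its counterpart for TGF-beta (0.69 ± 0.09), were higher, and Bambi, a decoy receptor, was lower (-0.76 ± 0.18). Among Wnt ligands and secreted modulators 3 of 30 were higher and 3 lower, below the share over all genes in both directions. Frzb, a secreted Wnt antagonist, was higher by 2.81 ± 0.19 and Sfrp1, a further antagonist, lower (-1.75 ± 0.17). Wnt receptors gave 4 higher (21.05%) and 6 lower (31.58%) of 19, against 17.4% and 18.2% over all genes. Examples are Fzd7 (0.62 ± 0.11) and Fzd3 (-1.74 ± 0.09).

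Embryonic cardiac fibroblasts, labelled with the age of one group and the cell type of the other, carried a strong muscle signal. The mean of the cardiomyocyte markers was 10.88 to 11.57 on their arrays, against 7.91 to 8.25 in adult fibroblasts and 12.39 to 12.53 in cardiomyocytes. Actc1 stood at 13.39 ± 0.17 (SD, n = 3) there and at 13.73 ± 0.02 in cardiomyocytes. Their mean lay between both groups for 1033 of the 1154 genes at least 2-fold higher in adult fibroblasts and for 1410 of the 1495 lower ones. Those genes were picked for the distance between the outer groups, which makes a value in between likely, so the counts are a description. Fn1 and Hbegf, under 2-fold apart and so outside these counts, had their highest mean in the embryonic fibroblasts (12.57 ± 0.20 and 11.84 ± 0.21). Igf2, an exception among the lower genes, was near the cardiomyocytes there but not in between (11.78 ± 0.16 against 11.66 ± 0.06). Cp was near the cardiomyocytes at the low end (7.0 ± 0.09 against 6.58 ± 0.10). These are levels given without a test.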

How the data were processed

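Total RNA was measured on 9 one-colour arrays. The log2 values used here are as deposited: the authors summarised probe intensities by RMA, a method the submitters' processing notes name without a version. Neither a genome build nor the log base is stated, and base 2 was taken because RMA works on it and values lie between 2.703 and 14.197. RMA compresses dim genes. Probes were named through the platform annotation, and 1618 probes with several symbols and 5373 with none were left out. Adult fibroblasts and cardiomyocytes were contrasted with limma 3.58.1 in R 4.3.3 (lmFit, eBayes, 3 group means over all 9 arrays, two-sided, Benjamini-Hochberg over 19933 genes), tested on simulated data; no filter was set on dim genes. Genes named are the 15 with the largest difference per direction (called, groups not overlapping, no predicted loci), up to 4 called members per direction of each list, Fn1, Col1a1, Col3a1, Hbegf, Itgb1, Nkx2-5 and sex-linked genes; others were chosen after their values were seen. The comparison, lists and members were chosen with earlier results of these data known. Promoters take the most upstream RefSeq start per gene. Python 3.11.15 with matplotlib 3.10.9 made the figures. Only 3 arrays per group limit the precision.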

Additional observations from a re-analysis of the deposited data

How the results depend on the processing

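The counts of 3465 higher and 3626 lower genes changed to 3008 and 3355 with only the 6 arrays of both groups, 3735 and 3535 after quantile normalization, 3543 and 3566 with arrays centred on their medians, and 4184 and 4077 with array weights. Leaving out dim genes gave 3251 and 3536 of 14668. Asking also for 2-fold left 1154 and 1495. Without 1 replicate in turn the counts ran from 2821 to 3846 higher and from 3063 to 3790 lower. With the replicate number as a block, 3436 were higher and 3597 lower. Deviations from the group mean had r from -0.195 to 0.198 between same-numbered arrays of different groups. Between differently numbered arrays r ran from -0.22 to 0.191. With 3 arrays per group these values cannot decide whether the numbers pair the samples. Of the named genes' recomputed differences, 4417 kept direction and side of the threshold, 106 lost the call, 1 gained it (Itgb1 after quantile normalization, 0.35, adjusted p = 0.01465) and 2 reversed. Both reversals concern Nkx2-5, at 0.008093 after quantile normalization and 0.006167 without adult replicate 2 (from -0.14 to 0.006167 without each replicate in turn), and the cause was not tested. RMA values give no background per probe, so the lower limit of a dim gene is unknown.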

Other observations

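MicroRNA genes are on the array through their hairpin or primary transcript, not the mature RNA, and the genes named in this paragraph were chosen after their values were seen. Of 296 Mir genes 40 were higher and 14 lower in adult fibroblasts, against 17.4% and 18.2% over all genes, with 26 higher and 9 lower without cardiomyocyte replicate 2. Mir155, an immune-regulated microRNA, read 8.94, 8.94 and 9.38 in adult arrays and 6.90, 6.69 and 7.17 in cardiomyocytes (2.16 ± 0.16, limma adjusted p = 6.72e-06). Of 9 let-7 hairpin genes 4 were higher and 0 lower, but 1 without cardiomyocyte replicate 2 and 2 without replicate 3. Mirlet7a-1 had 9.01, 9.11 and 8.93 against 7.66, 8.25 and 8.46, Mirlet7c-1 differed by 1.13 ± 0.31, Mirlet7f-1 by 0.86 ± 0.26 and Mirlet7g by 0.53 ± 0.15. Lin28b, whose product blocks let-7 maturation, was lower (6.94, 6.69 and 7.03 against 7.74, 8.11 and 8.02). The 5p arms, from RefSeq (GRCm38.p6), share the seed at bases 2 to 8, in capitals, in the 4 let-7 members, and miR-155 has another.
let-7a-5p: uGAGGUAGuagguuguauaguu
let-7c-5p: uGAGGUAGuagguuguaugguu
let-7f-5p: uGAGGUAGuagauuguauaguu
let-7g-5p: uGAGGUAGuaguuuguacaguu
miR-155-5p: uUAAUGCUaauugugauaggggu

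Olfactory receptor genes, most of them silent outside the nose, give a view of dim probes. Of 1027 measured, 45 were higher (4.38%) and 4 lower (0.39%) in adult fibroblasts, below the 17.4% and 18.2% over all genes. Their median difference was 0.13, against 0.06 for all genes. The count of higher ones was 28 without adult replicate 3, 78 without adult replicate 2, and 19 and 25 without cardiomyocyte replicates 1 and 2. The count of lower ones ran from 1 without adult replicate 1 or 2 to 9 without adult replicate 3.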
